A study of Homo sapiens with 6 samples.

Results

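The 10 long noncoding RNA genes described here are H19, MALAT1, NEAT1, PVT1, MIR205HG, MIR31HG, LUCAT1, TUG1, NORAD and KCNQ1OT1. They were chosen by name from a gene count table of 58825 Ensembl identifiers, in which GENCODE 29 classes 15970 as long noncoding genes. H19 is among them because it has been reported as a substrate of NSUN2, an enzyme that methylates cytosines of tRNAs and of some other RNAs to 5-methylcytosine (m5C). Gene expression was measured by RNA sequencing of total RNA in FaDu, an established line of human hypopharyngeal squamous carcinoma cells. In the shNSUN2 group, 3 libraries came from cells that carried a short hairpin RNA targeting NSUN2, and in the FaDu group, 3 libraries came from cells with no hairpin. A non-targeting hairpin is not among the groups, so the loss of NSUN2 and the presence of a hairpin cannot be told apart. Nothing in the labels says whether replicates came from separate cultures or whether the hairpin line was 1 clone, so p-values measure sample-to-sample spread, which may be technical.

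Long noncoding RNAs work as RNA. Some build nuclear bodies or stay at their own locus, where they act on neighbouring genes, and others bind proteins in the cytoplasm or are cut into microRNAs. NEAT1 is the scaffold of paraspeckles, nuclear bodies built on its long isoform with proteins such as NONO and SFPQ, and MALAT1 is a highly abundant RNA of nuclear speckles, where splicing factors gather. Both are made from neighbouring genes. MALAT1 and the long isoform of NEAT1 end in a triple helix in place of a poly(A) tail. This end is left after RNase P cuts off a tRNA-like RNA. H19 is an imprinted RNA that holds the microRNA miR-675, and NORAD holds translation repressors of the PUMILIO family, such as PUM2, on repeated binding motifs.

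The sequence that sets MALAT1 and the long NEAT1 isoform apart from most noncoding transcripts is shown first, because it bears on how their RNA ends. The stretches below come from the GENCODE 29 transcripts MALAT1-202 (bases 8265 to 8355 of 8708) and NEAT1-202 (bases 22651 to 22743 of 22743), written 5′ to 3′. Capitals mark 2 U-rich runs (TTTCTTTT and TTTTGCTTTT in DNA letters) and the A-rich run AAAAAGCAAAA, which form the triple helix.
MALAT1-202: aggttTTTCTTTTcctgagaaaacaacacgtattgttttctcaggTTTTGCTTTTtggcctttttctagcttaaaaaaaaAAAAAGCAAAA
NEAT1-202: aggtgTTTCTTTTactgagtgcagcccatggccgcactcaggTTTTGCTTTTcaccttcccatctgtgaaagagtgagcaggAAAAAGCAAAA
Searched on the transcript strand, with at most 80 bases between neighbouring runs, these 3 runs in this order occurred in 2 of 206694 GENCODE 29 transcripts, 1 of MALAT1 and 1 of NEAT1. The runs were read from the end of NEAT1-202 itself, so the NEAT1 match was fixed in advance. A poly(A)-selected library may treat such RNAs differently from others, and whether these libraries were poly(A)-selected is not stated in the labels.

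NORAD is shown for its repeated PUMILIO motif. The 3 stretches below hold the places in NORAD-201 where a pair of TGTANATA matches (capitals, N being any base, transcript strand) stand close together.
NORAD-201 from base 1436 to 1464: tatctgTGTATATAgTGTACATAaaggac
NORAD-201 from base 2633 to 2661: ctatacTGTATATAtTGTATATAtaacgg
NORAD-201 from base 3269 to 3297: gtgctgTGTATATAgTGTATATAagcgga
NORAD-201 held 15 matches in all. At least 1 match was found in 7.42% of 29171 long noncoding transcripts of 200 bases or more, and 4 transcripts, NORAD-201 included, held as many as NORAD-201.

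The microRNAs encoded in 3 of the genes follow, from RefSeq on GRCh38.p14, with the seed (bases 2 to 8) in capitals. The H19 pair lies at chr11:1996800-1996822 and chr11:1996768-1996787 on the minus strand. The MIR205HG pair lies at chr1:209432166-209432187 and chr1:209432203-209432223 on the plus strand, and miR-31-5p lies inside MIR31HG at chr9:21512158-21512178 on the minus strand.
hsa-miR-675-5p: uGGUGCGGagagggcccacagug
hsa-miR-675-3p: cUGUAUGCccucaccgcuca
hsa-miR-205-5p: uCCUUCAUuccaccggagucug
hsa-miR-205-3p: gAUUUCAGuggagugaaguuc
hsa-miR-31-5p: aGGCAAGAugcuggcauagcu
No seed was shared between them. Mature microRNAs were not measured. In the count table, 14 small RNA entries lie within exons of the 10 genes on the same strand. Of these, 13 had at most 2 counts in every library, so they carry no information on processing.

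The targeted gene was checked first. NSUN2 (chromosome 5, 6599239 to 6633291, GRCh38) stood at 50.4, 34.7 and 39.6 CPM (counts scaled to library size by edgeR) in shNSUN2 and at 169, 173 and 156 CPM in FaDu. All 3 hairpin libraries lay below all 3 without it. The mean in shNSUN2 was 25.1% of that in FaDu, with an adjusted p of 0.000526 by edgeR's quasi-likelihood test. Fold changes below are of shNSUN2 over FaDu, on the log2 scale. Library totals were 53612358 to 72788971 estimated counts. Replicate 3 of shNSUN2 stood apart by base composition. Its log2 difference from the mean of the other 2 libraries of its group correlated with gene GC content at a Spearman rho of 0.425 over 19033 genes, which are not independent replicates, and the other 5 libraries lay between −0.333 and 0.148. Summed CPM of the squamous markers (KRT5, KRT14, TP63 and 7 more) were 3053 to 3568 in shNSUN2 and 5028 to 5083 in FaDu. Of these 10 markers, 1 was called higher and 7 were called lower, and none was at 0.

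All 10 noncoding RNAs passed the filter on low counts and were tested. By edgeR with Benjamini-Hochberg adjustment over all 19081 tested genes and a threshold of 0.05, 1 of the 10 was higher in shNSUN2 and none was lower. Called were 9.51% of all 3050 tested long noncoding genes (1.64% higher and 7.87% lower) and 18.5% of all tested genes (8.54% higher and 9.97% lower). At an unadjusted p under 0.05, NEAT1 was higher and MIR205HG was lower. The median log2 fold change over the 10 was −0.23, against −0.31 over the long noncoding genes tested and −0.01 over all genes tested. That median was −0.36, −0.01 or −0.10 without shNSUN2 replicate 2, shNSUN2 replicate 3 or FaDu replicate 3, and −0.04 with each library corrected for GC content and gene length. NEAT1, MIR31HG and MIR205HG had groups that did not overlap, as did 32.1% of the long noncoding genes tested (6.66% higher and 25.5% lower in shNSUN2) and 42.3% of all genes tested. Among the 293 long noncoding genes with a mean of at least 5 CPM, 24.9% were called and 49.8% did not overlap.

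**Figure D1:**
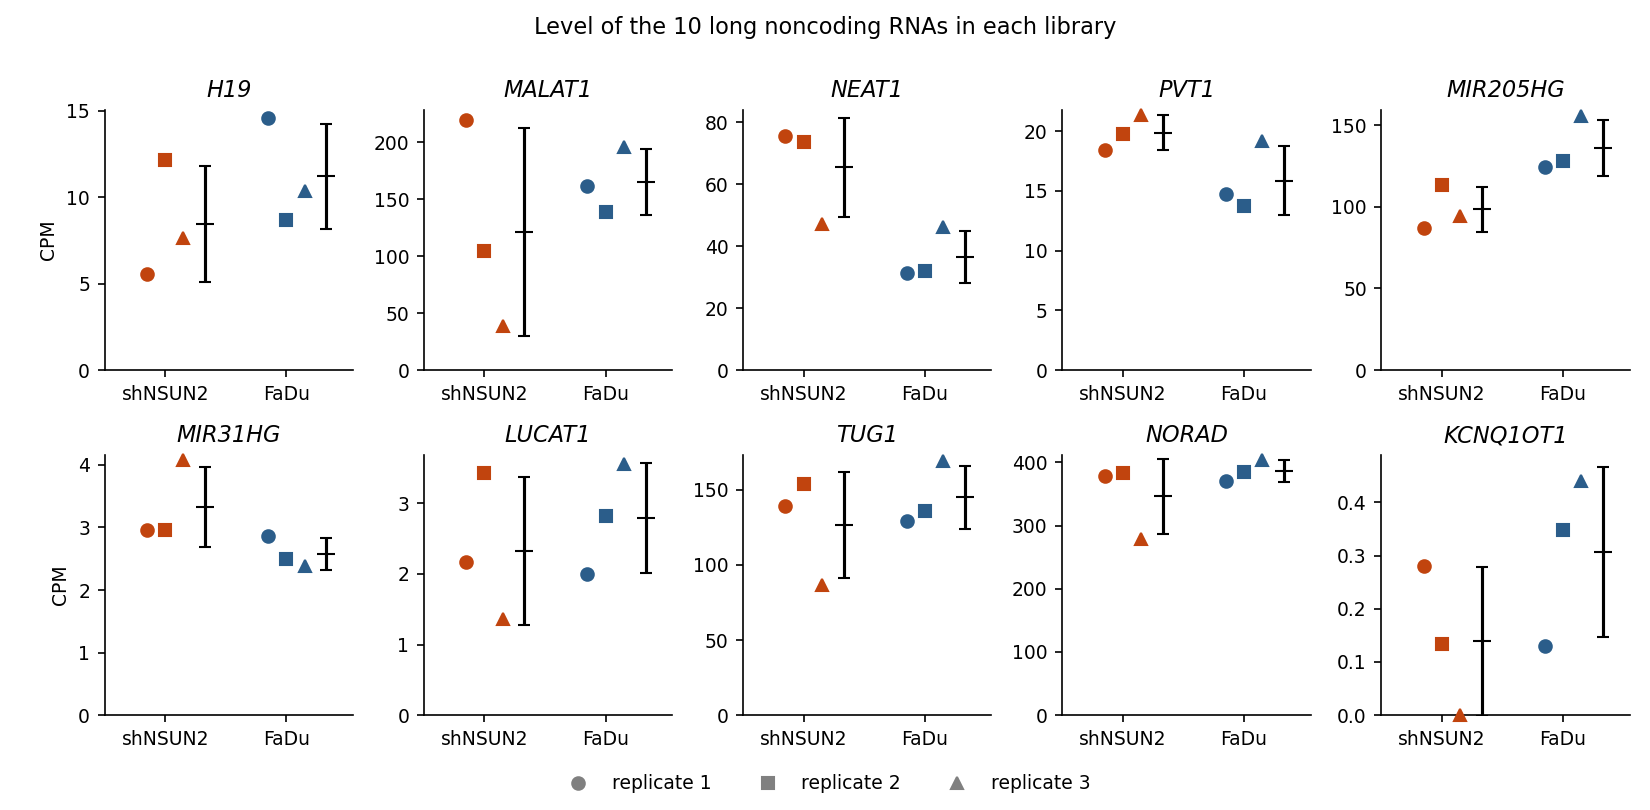
CPM of the 10 long noncoding RNAs and their mean ± SD (n = 3 libraries a group, linear axes from 0), with shNSUN2 left of FaDu. The NEAT1 libraries of shNSUN2 sit at 47.1 to 75.7 CPM, above the FaDu libraries at 31.2 to 46.1 CPM, and the MALAT1 libraries of shNSUN2 spread from 38.9 to 219 CPM.

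NEAT1 was the member that rose. It lies on the plus strand of chromosome 11 from 65422774 to 65445540 (GRCh38, GENCODE 29, classed lincRNA), with 22767 exonic bases over all its isoforms and a GC content of 45.5%. Its level was 75.7, 73.6 and 47.1 CPM in shNSUN2 and 31.2, 32.0 and 46.1 CPM in FaDu. Replicates 1 and 2 of shNSUN2 were high, and replicate 3 of shNSUN2 stood barely above replicate 3 of FaDu. The means were 65.5 ± 16.0 CPM in shNSUN2 and 36.4 ± 8.34 CPM in FaDu (SD, n = 3 each). The log2 fold change was 0.85 (SE 0.23, 95% interval 0.32 to 1.37) with an adjusted p of 0.0384 by edgeR.

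NEAT1 was called in 2 of the 6 fits that left out 1 library. Without FaDu replicate 1 or 2, or without shNSUN2 replicate 1 or 2, the adjusted p by edgeR was 0.128, 0.138, 0.114 or 0.0930. Without FaDu replicate 3 the log2 fold change was 1.05 and the adjusted p 0.0449, and without shNSUN2 replicate 3 they were 1.04 and 0.0110. With upper quartile scaling the call was also lost (log2 fold change 0.77, adjusted p = 0.0575). Once each library was corrected for its own dependence on gene GC content and length, NEAT1 stood at 73.7, 73.9 and 67.3 CPM in shNSUN2 and at 28.6, 28.5 and 40.5 CPM in FaDu. The gap between the groups was wider on that scale, with a log2 fold change of 1.14 and an adjusted p of 0.00253. The correction also moved the median log2 fold change of all genes from −0.01 to 0.11. Fits with this correction and 1 library left out were added after seeing the data. Across them the log2 fold change of NEAT1 lay at 1.04 to 1.33 and the adjusted p by edgeR at 0.00297 to 0.0146.

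MALAT1 starts downstream of NEAT1, at chromosome 11 from 65497688 to 65506516 on the plus strand, with 8829 exonic bases and a GC content of 39.6%. Its level was 219, 105 and 38.9 CPM in shNSUN2 and 161, 139 and 196 CPM in FaDu. One hairpin library lay above every FaDu library and the other two lay below every one, so the groups overlapped. The means were 121 ± 91.2 CPM in shNSUN2 and 165 ± 28.8 CPM in FaDu (SD, n = 3 each), and the log2 fold change was −0.45 (SE 0.58, 95% interval −1.86 to 0.95) with an adjusted p of 0.638 by edgeR. Single libraries set that value: it was −1.20 (adjusted p = 0.114) without shNSUN2 replicate 1 and −0.03 (adjusted p = 0.972) without replicate 3. The highest library was 5.64 times the lowest in shNSUN2 and 1.41 times in FaDu. Of 10780 tested genes with at least 5 CPM in both groups, 0.547% had a ratio at or above 5.64 within shNSUN2, and the median ratio there was 1.36. Corrected for GC content and length, the MALAT1 libraries stood at 204, 101 and 52.5 CPM in shNSUN2 and at 157, 126 and 182 CPM in FaDu, so the spread within shNSUN2 was still wide.

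NEAT1 and MALAT1 are neighbours, and the long NEAT1 isoform has a 3′ end like that of MALAT1. NEAT1 was therefore also set against other members within each library. NEAT1 over TUG1 was 0.544, 0.478 and 0.543 in shNSUN2 and 0.242, 0.235 and 0.272 in FaDu. NEAT1 over NORAD was 0.200, 0.192 and 0.169 in shNSUN2 and 0.0844, 0.0832 and 0.114 in FaDu. NEAT1 over MALAT1 was 0.346, 0.702 and 1.21 in shNSUN2 and 0.194, 0.231 and 0.235 in FaDu. In all 3 ratios the groups were apart, with the TUG1 ratio holding nearly level across the hairpin libraries and the MALAT1 ratio spreading widely. Each exact two-sided permutation p was 0.1, the smallest that 3 against 3 libraries can give. MALAT1 over NORAD (p = 0.5) and MALAT1 over TUG1 (p = 0.4) overlapped between groups by the same exact test.

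**Figure D2:**
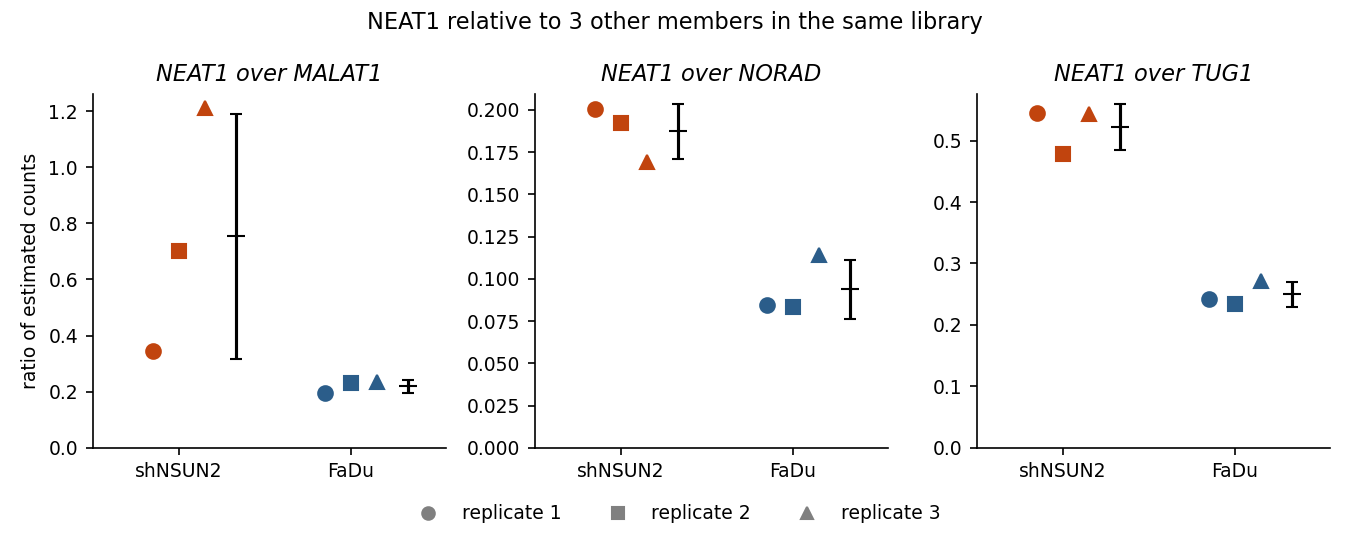
Ratio of NEAT1 to MALAT1, to NORAD and to TUG1 in each library, with mean ± SD (n = 3 libraries a group, linear axes from 0) and shNSUN2 left of FaDu. The shNSUN2 libraries lie above the FaDu libraries in each ratio, at 0.478 to 0.544 against 0.235 to 0.272 for NEAT1 over TUG1.

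The genes around the pair gave mixed values. FRMD8, 9249 bases upstream of NEAT1, had a log2 fold change of 0.03 (adjusted p = 0.962 by edgeR). TIGD3, a transposase-derived gene, was called higher at 1.25, with 2.79, 3.18 and 3.78 CPM in shNSUN2 against 1.44, 1.21 and 1.46 CPM in FaDu. Its adjusted p was 0.0102 by edgeR, and without FaDu replicate 2 it was not called (log2 fold change 1.17).

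By its profile over the 6 libraries, NEAT1 was most like RNFT2, CRCP and RBL1 among 11212 genes with a mean of at least 5 CPM. Likeness was the root mean square difference of centred log2 CPM, which was 0.132 for RNFT2, 0.140 for CRCP, a subunit of RNA polymerase III, and 0.149 for RBL1, the RB-like protein p107. RBL1 stood at 59.4, 58.0 and 35.4 CPM in shNSUN2 and at 25.5, 29.3 and 29.8 CPM in FaDu. RBL1 was chosen for this likeness, so its low shNSUN2 replicate 3 is no separate observation.

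The proteins of paraspeckles were followed as a list of 12, all tested. Of these, 7 rose, none fell, and the median log2 fold change was 0.42, against −0.01 over all genes. Over all tested genes, 8.54% were called higher and 9.97% lower, the shares to set beside this list and the later ones. These shares are not matched to the lists by level. Among long noncoding genes, 9.51% of all tested and 24.9% of those with a mean of at least 5 CPM were called. Shares over genes with levels like those of the lists were not computed. SFPQ, a core protein that binds NEAT1, stood at 483, 368 and 509 CPM in shNSUN2 and at 240, 227 and 190 CPM in FaDu, with a log2 fold change of 1.05 and an adjusted p of 0.00473 by edgeR. Its groups were apart, and it stayed called whichever library was left out.

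RBM14, which bridges paraspeckle subcomplexes, rose by 1.08, and SMARCA4, the ATPase of SWI/SNF remodelling complexes, by 0.62 on the log2 scale. NONO, the partner of SFPQ, gave 0.07 (adjusted p = 0.830 by edgeR), with 249, 219 and 252 CPM in shNSUN2 and 290, 178 and 219 CPM in FaDu. Leaving out shNSUN2 replicate 1, 2 or 3 gave 3, 6 or 8 paraspeckle proteins called higher, and leaving out FaDu replicate 1, 2 or 3 gave 3, 2 or 2. Calls over all genes moved too, to 1354 to 4271 with 1 library left out against 3532 in the full fit. Counts of this and the later lists are to be read beside that. SMARCA4 was not called without shNSUN2 replicate 1 or any 1 FaDu library (log2 fold change 0.58 to 0.67 there). RBM14 was not called without shNSUN2 replicate 1 or 3 or FaDu replicate 2 or 3 (0.88 to 1.10).

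The list of MALAT1 partners and 3′ end processing factors held 13 genes, all tested. Increases were called for 6 and decreases for none, and the median was 0.57. SRSF1, a splicing factor that MALAT1 binds, stood at 165, 156 and 188 CPM in shNSUN2 and 102, 93.8 and 88.8 CPM in FaDu, a log2 fold change of 0.84 with an adjusted p of 0.00425 by edgeR. POP1, a protein of RNase P, rose by 0.97 on the log2 scale, with 82.4, 74.6 and 106 CPM in shNSUN2 against 47.0, 45.9 and 41.3 CPM in FaDu. SRSF3, another splicing factor, rose by 0.79 and RPP30, a further RNase P subunit, by 0.57. SRSF1 and POP1 stayed called whichever library was left out. SRSF3 and RPP30 were not called without shNSUN2 replicate 1 or any 1 FaDu library (0.71 to 0.84 and 0.57 to 0.63). Without shNSUN2 replicate 1, 2 or 3 the list had 2, 6 or 7 genes called higher, and without FaDu replicate 1, 2 or 3 it had 2, 3 or 2. With the GC content and length correction it had 10, while genes called higher over the whole table went from 1629 to 3465.

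NORAD lies on the minus strand of chromosome 20 from 36045622 to 36050960, with 5339 exonic bases and a GC content of 41.6%. It was the most abundant of the 10, at 378, 383 and 278 CPM in shNSUN2 and 370, 384 and 404 CPM in FaDu. Replicate 3 of shNSUN2 was the low library, and the other 5 lay close together. NORAD gave a log2 fold change of −0.16 (SE 0.14, 95% interval −0.49 to 0.17), with an adjusted p of 0.486 by edgeR.

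Among NORAD's PUMILIO partners, PUM2 gave a log2 fold change of 0.27 and was not called (adjusted p = 0.329 by edgeR), whereas with the GC content and length correction it was called higher, at 0.40 (adjusted p = 0.0256). Over the NORAD and PUMILIO list, increases were called for 5 of 10 tested genes and decreases for none, and the median was 0.36. CDC6, which licenses replication origins, stood at 128, 111 and 107 CPM in shNSUN2 and 66.7, 56.6 and 53.2 CPM in FaDu. It is among the 5 because the list names it, and a link of CDC6 to NORAD was not tested. ALYREF, an mRNA export adaptor that reads m5C, stood at 242, 181 and 354 CPM in shNSUN2 and 92.4, 76.2 and 78.5 CPM in FaDu. PRPF19, a ubiquitin ligase of the spliceosome, stood at 284, 285 and 381 CPM in shNSUN2 and 192, 172 and 170 CPM in FaDu.

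The log2 fold changes were 0.97 for CDC6, 1.65 for ALYREF and 0.83 for PRPF19 (adjusted p 0.0038, 0.0039 and 0.0084 by edgeR), and these 3 stayed called whichever library was left out. TOP1, the topoisomerase in the complex reported to form on NORAD, rose by 0.50, and was not called without shNSUN2 replicate 1 or any 1 FaDu library (0.45 to 0.54). The list had 3, 5 or 7 genes called higher without shNSUN2 replicate 1, 2 or 3, and 3 without each FaDu library in turn. CNBD2, the nearest coding gene at 14922 bases, was barely detected, at 0, 0 and 0.0741 CPM in shNSUN2 against 0.343, 0.220 and 1.15 CPM in FaDu. It was called lower at −4.40 (adjusted p = 0.0425 by edgeR). That call was lost without shNSUN2 replicate 1 or 2 or any 1 FaDu library (−4.79 to −3.38). Farther off, EPB41L1, a membrane skeleton protein 40544 bases away, rose by 0.89 (adjusted p = 0.0035 by edgeR), at 107, 107 and 118 CPM in shNSUN2 against 62.2, 53.8 and 64.0 CPM in FaDu.

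TUG1, a broadly expressed nuclear and cytoplasmic RNA, lies on the plus strand of chromosome 22 from 30969245 to 30979395, with 10151 exonic bases. Its level was 139, 154 and 86.6 CPM in shNSUN2 and 129, 136 and 169 CPM in FaDu. Again replicate 3 was the low hairpin library, and the groups overlapped. TUG1 gave a log2 fold change of −0.20 (SE 0.22, 95% interval −0.70 to 0.31) with an adjusted p of 0.579 by edgeR, and 0.02 without that library. MORC2, a chromatin ATPase 947 bases away on the other side of a shared promoter region, gave 0.16 (adjusted p = 0.350), and 0.29 with the GC content and length correction, where it was called higher (adjusted p = 0.0463).

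The low values of replicate 3 ran across the AT-rich members. The log2 difference of shNSUN2 replicate 3 from the mean of replicates 1 and 2 was −1.96 for MALAT1, −0.95 for LUCAT1, −0.76 for TUG1, −0.66 for NEAT1 and −0.45 for NORAD. It was −0.11 for H19, −0.08 for MIR205HG, 0.16 for PVT1 and 0.45 for MIR31HG, the members with more GC. KCNQ1OT1, with 0 counts in that library, is left out here, since its value of −1.58 depends on the constant of 0.1 CPM added before taking logs. Over all genes of at least 1 CPM the median difference was −0.44 at 35 to 40% GC, −0.23 at 40 to 45% and 0.35 at 60 to 65%. All members except MIR31HG lay below the median of genes in their own bin of GC content, or 9 of 10. Of these, 6 lay below the middle 50% of their bin: MALAT1, LUCAT1, TUG1, NEAT1, H19 and KCNQ1OT1. KCNQ1OT1 is in both counts, although its value depends on the added constant. Its mean level of 0.22 CPM was also under the 1 CPM asked of the genes in the bins. Summed over the 10 members, CPM were 929, 867 and 579 in shNSUN2 and 851, 847 and 1007 in FaDu.

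**Figure D3:**
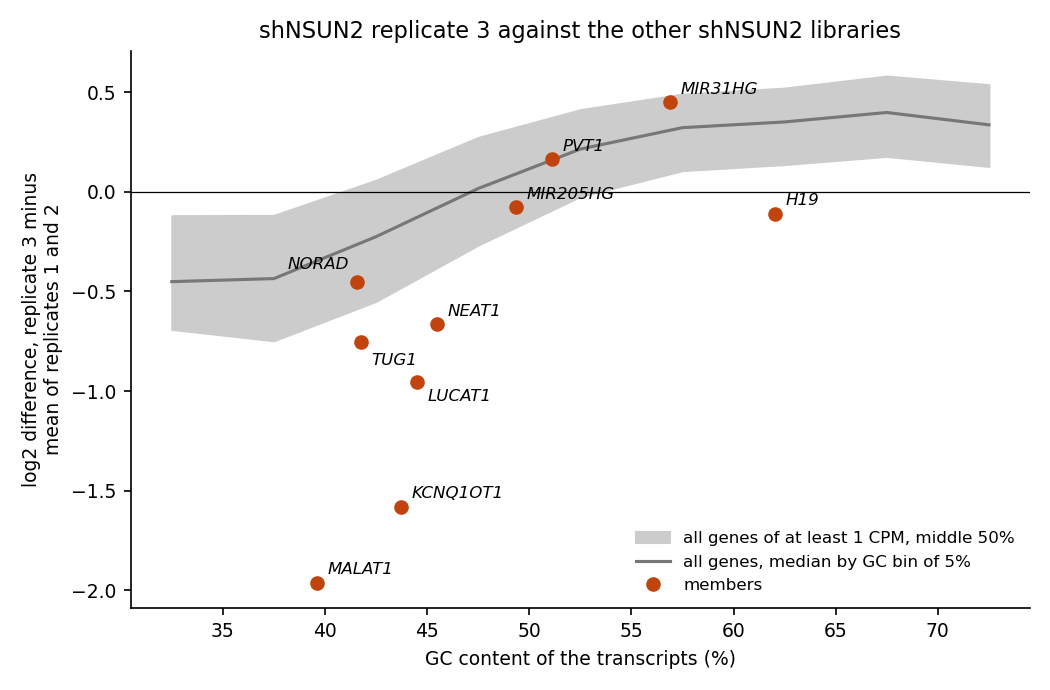
Log2 difference of shNSUN2 replicate 3 from the mean of shNSUN2 replicates 1 and 2 against GC content in percent, for the 10 long noncoding RNAs, with the median and middle 50% of all genes of at least 1 CPM in each bin of GC content. MALAT1 lies at −1.96, below the median of −0.44 of its bin, and MIR31HG lies at 0.45. The point of KCNQ1OT1 depends on the constant added before taking logs.

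H19, the reported NSUN2 substrate, was tested at a modest level and was not called. Its methylation was not measured in these libraries. The gene lies on the minus strand of chromosome 11 from 1995176 to 2001470, with 2897 exonic bases and the highest GC content of the 10, at 62.0%. Its level was 5.56, 12.2 and 7.61 CPM in shNSUN2 and 14.6, 8.70 and 10.3 CPM in FaDu. The ranges overlapped widely, with means of 8.44 ± 3.38 CPM in shNSUN2 and 11.2 ± 3.04 CPM in FaDu (SD, n = 3 each). H19 gave a log2 fold change of −0.41 (SE 0.31, 95% interval −1.13 to 0.31) with an adjusted p of 0.402 by edgeR, so a fall of more than 1.13 on the log2 scale or a rise of more than 0.31 lies outside the interval. The value was −0.18 without shNSUN2 replicate 1, −0.17 without FaDu replicate 1 and −0.76 (adjusted p = 0.107) without shNSUN2 replicate 2, and with the GC content and length correction too that last fit gave −0.75 (adjusted p = 0.0513). H19 was not called under any setting run.

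Partners of H19 and its locus were read as a list of 16, of which 12 were tested. Of these, 2 rose, 2 fell, and the median was 0.13. IGF2BP2, an RNA-binding protein that stabilises mRNAs, from a family that binds H19, stood at 17.5, 16.3 and 14.7 CPM in shNSUN2 and at 39.7, 40.2 and 40.5 CPM in FaDu. The groups lay far apart relative to their spread, with a log2 fold change of −1.31 (SE 0.13) and an adjusted p of 0.00091 by edgeR, and the gene stayed called whichever library was left out.

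CTCF, the insulator protein of the H19 and IGF2 locus, rose by 0.50 and KHSRP, a decay factor that H19 binds, by 0.40 on the log2 scale. PLAGL1, an imprinted zinc finger gene, fell by 1.07. CTCF was not called without shNSUN2 replicate 1 or any 1 FaDu library (0.46 to 0.53), KHSRP without shNSUN2 replicate 1 or 2 or any 1 FaDu library (0.35 to 0.45), and PLAGL1 without shNSUN2 replicate 1 or 3 or any 1 FaDu library (−1.17 to −0.82). With the GC content and length correction PLAGL1 was not called (−0.88, adjusted p = 0.0685). Without shNSUN2 replicate 1, or FaDu replicate 1, 2 or 3, the list had 0 genes called higher and 1 called lower. The counts were 1 higher and 2 lower without shNSUN2 replicate 2, and 2 higher and 2 lower without replicate 3. With the GC content and length correction they were 4 higher and 1 lower, with no filter 1 and 1, with upper quartile scaling 1 and 3. MRPL23, a mitochondrial ribosomal protein gene 10654 bases from H19, was called higher at 1.24, with 35.3, 33.1 and 52.6 CPM in shNSUN2 against 20.5, 18.9 and 11.9 CPM in FaDu, and was not called without FaDu replicate 2 or 3 (1.03 to 1.32).

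KCNQ1OT1, an antisense RNA that silences the neighbouring imprinted domain, was near the limit of detection. It lies on the minus strand of chromosome 11 from 2608328 to 2699994, within KCNQ1, and spans 91667 exonic bases. Its counts were 19, 8 and 0 in shNSUN2 and 8, 19 and 33 in FaDu. In replicate 3 of shNSUN2 a count of 0 allows up to 3 counts, or 0.0444 CPM, for counting error alone. The log2 fold change of −1.14 had an SE of 1.09 (95% interval −3.64 to 1.37, adjusted p = 0.508 by edgeR), so no difference was detectable at this depth.

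Around KCNQ1OT1, KCNQ1 itself stood at 3.09, 3.52 and 3.48 CPM in shNSUN2 and at 5.72, 6.42 and 5.06 CPM in FaDu. This potassium channel gene was called lower at −0.77 (adjusted p = 0.0241 by edgeR), and its call was lost without shNSUN2 replicate 1 or any 1 FaDu library (−0.85 to −0.68). CDKN1C, a cyclin-dependent kinase inhibitor of the same domain, stood at 0.754, 1.04 and 0.459 CPM in shNSUN2 and at 2.22, 2.33 and 3.03 CPM in FaDu. Its log2 fold change was −1.75 (adjusted p = 0.0132), and it was not called without FaDu replicate 3 (−1.60). Other genes nearby were not called and went both ways (adjusted p 0.0518 to 0.350 by edgeR). They were SLC22A18AS (0.85), PHLDA2 (0.45), NAP1L4 (0.38), TSSC4 (0.29) and SLC22A18 (−0.60). With the GC content and length correction SLC22A18 was called lower (−0.55, adjusted p = 0.0313). Strand was not given for these libraries, so reads of KCNQ1 and of its antisense RNA cannot be told apart where they overlap.

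MIR205HG is the host gene of miR-205, a microRNA of basal and squamous epithelium. It lies on the plus strand of chromosome 1 from 209428820 to 209432838, with 3518 exonic bases. Its level was 87.1, 114 and 94.2 CPM in shNSUN2 and 124, 128 and 156 CPM in FaDu. All hairpin libraries lay below all FaDu libraries, with means of 98.3 ± 13.7 CPM in shNSUN2 and 136 ± 17.2 CPM in FaDu (SD, n = 3 each). The log2 fold change of −0.47 (SE 0.15, 95% interval −0.81 to −0.13) missed the threshold, with an adjusted p of 0.0631 by edgeR. It passed with DESeq2 (adjusted p = 0.0326), with upper quartile scaling in edgeR (0.0463) and without shNSUN2 replicate 2 (0.0410). It did not pass with the GC content and length correction (−0.35, adjusted p = 0.0939), nor in the other 5 fits without 1 library (adjusted p 0.0870 to 0.228). With both the correction and 1 library left out, it passed without shNSUN2 replicate 2 (−0.46, adjusted p = 0.0375 by edgeR) and in no other such fit. The squamous marker sums given above, lower in shNSUN2, moved in the same direction, and their part in the MIR205HG values was not tested.

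The entry for the miR-205 precursor overlaps an exon of the host gene and was also low, at 0.473, 1.06 and 0.726 CPM in shNSUN2 and 1.37, 1.45 and 2.20 CPM in FaDu. Its log2 fold change was −1.16 (SE 0.37, adjusted p = 0.0682 by edgeR). These reads are not a measure of mature miR-205.

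MIR31HG, from whose transcription unit miR-31 is made, lies on the minus strand of chromosome 9 from 21455642 to 21559669 and has 745 exonic bases. Its level was 2.96, 2.96 and 4.07 CPM in shNSUN2 and 2.86, 2.50 and 2.38 CPM in FaDu. The hairpin libraries lay above the others by a small margin, and the log2 fold change was 0.37 (SE 0.22, 95% interval −0.14 to 0.88) with an adjusted p of 0.285 by edgeR. The interferon pseudogene IFNWP19, on the opposite strand, covers 40.7% of its exons and stood at 3.19, 2.93 and 4.52 CPM in shNSUN2 and at 2.88, 2.39 and 1.99 CPM in FaDu, so the counts of both entries are uncertain.

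PVT1, an RNA of the MYC locus, lies on the plus strand of chromosome 8 from 127794533 to 128101253, with 5493 exonic bases. Its level was 18.5, 19.7 and 21.4 CPM in shNSUN2 and 14.7, 13.7 and 19.2 CPM in FaDu. Replicate 3 of FaDu reached into the hairpin range. PVT1 gave a log2 fold change of 0.32 (SE 0.17, 95% interval −0.06 to 0.71) with an adjusted p of 0.215 by edgeR. With the GC content and length correction and without FaDu replicate 3, PVT1 was called higher (adjusted p = 0.0377 by edgeR), and it was called in no other setting.

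MYC, the transcription factor gene 53099 bases upstream of PVT1, spread far more than PVT1 within both groups, at 71.6, 128 and 7.20 CPM in shNSUN2 and 143, 9.54 and 91.8 CPM in FaDu. No direction can be read from it (log2 fold change −0.24, SE 1.24, adjusted p = 0.915 by edgeR). GSDMC, a gasdermin gene 1646943 bases away on the far side of PVT1, was low in every hairpin library. It stood at 3.16, 2.93 and 3.18 CPM in shNSUN2 and 11.6, 12.8 and 11.6 CPM in FaDu. Its log2 fold change was −1.95 (adjusted p = 0.000515 by edgeR), and it was called whichever library was left out.

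LUCAT1, an RNA induced by NRF2 and by stress, lies on the minus strand of chromosome 5 from 91054834 to 91314547, with 16538 exonic bases. Its level was 2.17, 3.43 and 1.36 CPM in shNSUN2 and 1.99, 2.83 and 3.55 CPM in FaDu. The groups overlapped, and the log2 fold change was −0.27 (SE 0.37, 95% interval −1.12 to 0.59) with an adjusted p of 0.660 by edgeR. Without shNSUN2 replicate 3 it was 0.01. ADGRV1, a receptor gene whose locus overlaps LUCAT1 on the other strand, fell by 0.94, with 7.33, 9.33 and 8.18 CPM in shNSUN2 against 12.8, 18.8 and 16.2 CPM in FaDu. It was not called without shNSUN2 replicate 1 or FaDu replicate 2 or 3 (−0.93 to −0.81), nor with the GC content and length correction (−0.54, adjusted p = 0.144).

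The NRF2 target list beside LUCAT1 had 14 genes tested, with 1 called higher, 1 called lower and a median of 0.01. AKR1B10, an aldo-keto reductase, gave 1.03 and HMOX1, the inducible heme oxygenase, gave −0.78 on the log2 scale (adjusted p = 0.0375 and 0.0485 by edgeR). AKR1B10 was not called without shNSUN2 replicate 1 or 3 or any 1 FaDu library (0.83 to 1.26), and HMOX1 was not called without any 1 of the 6 (−0.91 to −0.50). The list had no gene called without shNSUN2 replicate 1 or any 1 FaDu library, 1 higher and 1 lower without shNSUN2 replicate 2, and 3 lower without replicate 3. DESeq2 called 1 higher and 3 lower, and the GC content and length correction gave 2 of each.

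**Figure D4:**
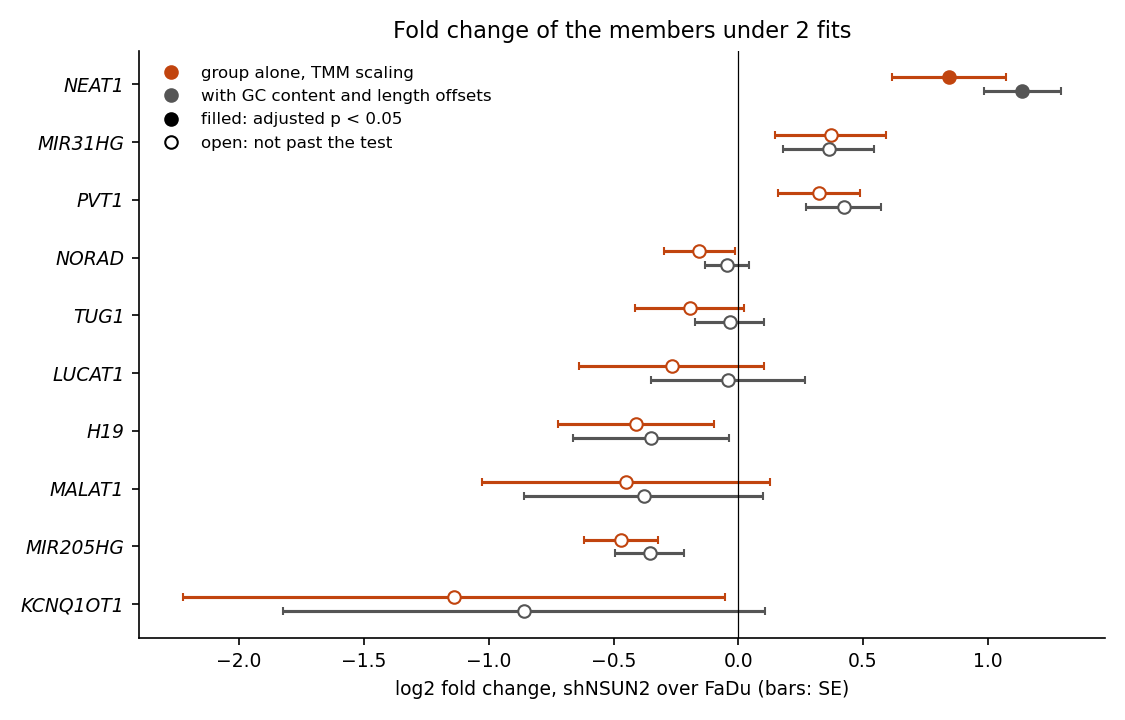
Log2 fold change of shNSUN2 over FaDu with its SE for each of the 10 long noncoding RNAs, from the edgeR fit and from the same fit with GC content and length offsets; filled points have an adjusted p under 0.05. NEAT1 is the filled member in both fits, at 0.85 and 1.14.

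Levels were compared between members per kilobase of exonic sequence. The order by mean CPM per kilobase in shNSUN2 was NORAD (64.9), MIR205HG (27.9), MALAT1 (13.7), TUG1 (12.5), MIR31HG (4.47), PVT1 (3.62), H19 (2.91), NEAT1 (2.88), LUCAT1 (0.140) and KCNQ1OT1 (0.00151). In FaDu it was NORAD (72.3), MIR205HG (38.7), MALAT1 (18.7), TUG1 (14.3), H19 (3.87), MIR31HG (3.46), PVT1 (2.89), NEAT1 (1.60), LUCAT1 (0.169) and KCNQ1OT1 (0.00335). NORAD stood clear of all others in both groups. In shNSUN2 the library ranges of MALAT1 overlapped those of MIR205HG, TUG1 and MIR31HG, and the ranges of H19 overlapped those of MIR31HG, PVT1 and NEAT1, so the order within these pairs is not resolved. In FaDu the ranges of MALAT1 and TUG1, of H19 and MIR31HG, of H19 and PVT1 and of MIR31HG and PVT1 overlapped, and NEAT1 lay below PVT1 in every library. The length counts all exons of every isoform, and isoforms were not measured apart. By CPM among the 3050 tested long noncoding genes, NORAD ranked 4, MALAT1 9, TUG1 11, MIR205HG 12 and NEAT1 23.

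Chromatin partners reported for several of these RNAs were counted as a list of 10, all tested, with 4 higher, none lower and a median of 0.42. DNMT1, the maintenance DNA methyltransferase, rose by 0.59, EHMT2, a histone H3 lysine methyltransferase, by 0.59, CBX2, a Polycomb reader, by 0.52 and EED, a subunit of Polycomb repressive complex PRC2, by 0.49 on the log2 scale. All 4 were called in the full fit (adjusted p 0.0200 to 0.0397 by edgeR) and none of them without shNSUN2 replicate 1 or any 1 FaDu library (0.44 to 0.66). Without those libraries in turn the list had no gene called. Without shNSUN2 replicate 2 it had 4 higher, and without replicate 3 it had 5 higher and 1 lower.

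The genomic neighbours of the 10 genes formed a list of 52, of which 40 were tested, with 5 higher, 7 lower and a median of 0.00. GSDMC, EPB41L1 and TIGD3 are given above. POLA2, a subunit of DNA polymerase alpha, rose by 1.50, at 39.2, 30.7 and 50.5 CPM in shNSUN2 and 13.4, 14.7 and 14.5 CPM in FaDu, and stayed called whichever library was left out. The neighbours had 4 higher and 2 lower, 7 and 5, or 5 and 8 without shNSUN2 replicate 1, 2 or 3, and 4 and 3, 2 and 2, or 3 and 1 without FaDu replicate 1, 2 or 3.

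Other long noncoding RNAs known from cancer or cell state formed a list of 40, of which 33 identifiers were tested, LINC-PINT having 2 of them. Of these, 2 were higher, 6 were lower, and the median was −0.27. MIR100HG, the host gene of miR-100 and let-7a-2, stood at 1.32, 0.808 and 0.844 CPM in shNSUN2 and 2.89, 2.57 and 4.15 CPM in FaDu, a log2 fold change of −1.69 (adjusted p = 0.0098 by edgeR), called whichever library was left out. LINC00520 gave −1.70, FEZF1-AS1 −1.15 and JPX, a noncoding RNA of the X inactivation centre, −0.76 (adjusted p 0.0138 to 0.0140).

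LINC00520 was not called without shNSUN2 replicate 1 or FaDu replicate 2 or 3 (−1.66 to −1.56), FEZF1-AS1 without FaDu replicate 2 or 3 (−1.18 to −1.10) and JPX without any 1 FaDu library (−0.79 to −0.72). The list had 1 higher and 3 lower, 1 and 5, or 2 and 6 without shNSUN2 replicate 1, 2 or 3, and 0 and 3, 0 and 1, or 0 and 1 without FaDu replicate 1, 2 or 3.

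**Figure D5:**
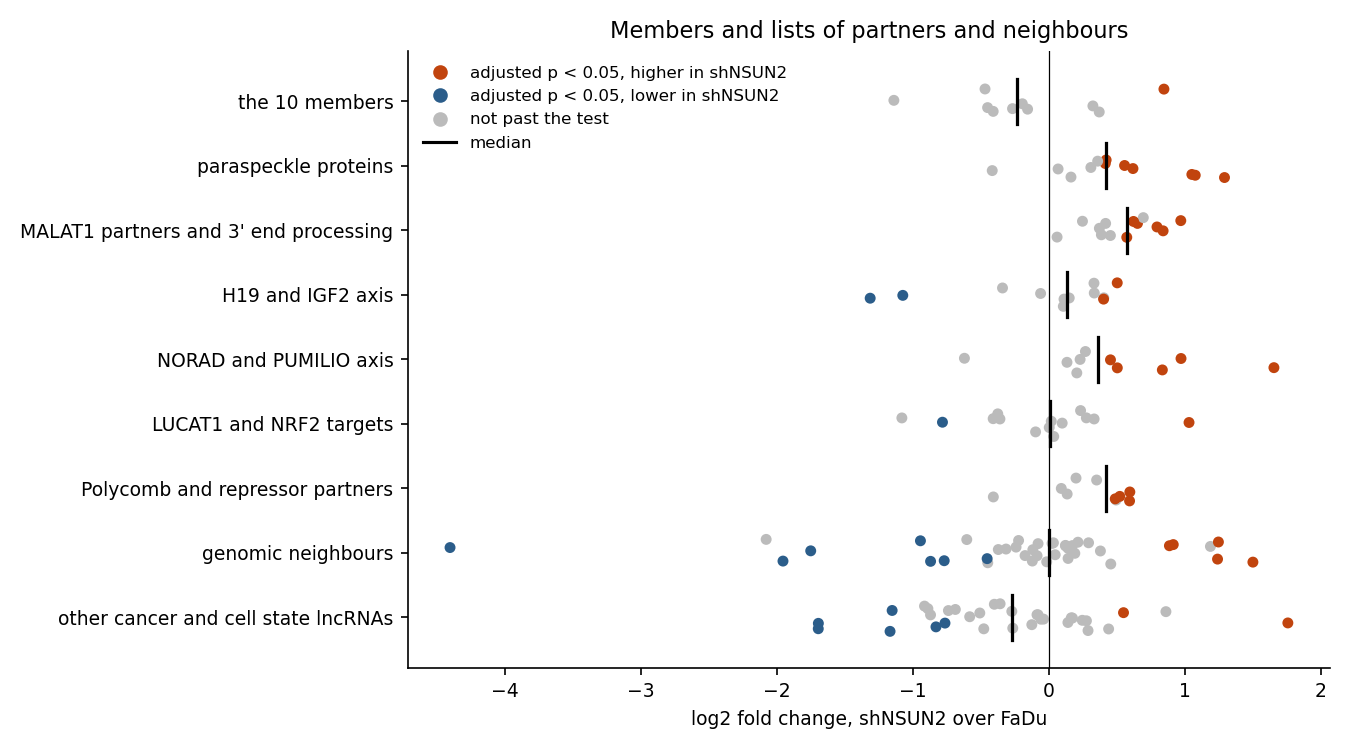
Log2 fold changes of shNSUN2 over FaDu for the tested genes of the 10 long noncoding RNAs and of 8 lists of partners, neighbours and other noncoding RNAs; each point is a gene, coloured where its adjusted p is under 0.05 and grey otherwise, and the vertical bar is the list's median. The paraspeckle proteins and the MALAT1 partners have medians of 0.42 and 0.57, and the 10 noncoding RNAs have a median of −0.23.

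Markers of other cell types were summed in each library, since several of these RNAs are abundant in other tissues. Endothelial markers summed to 31.8 to 54.8 CPM in shNSUN2 and 4.07 to 5.84 CPM in FaDu, with 1 of 6 called higher. That gene was CDH5, at 28.0, 40.0 and 50.7 CPM in shNSUN2 against 1.34, 0.954 and 1.87 CPM in FaDu, and without it the sums were 3.80 to 4.09 CPM in shNSUN2 and 2.73 to 3.97 CPM in FaDu. Prostate luminal markers summed to 37.9 to 57.9 CPM in shNSUN2 and 16.9 to 19.6 CPM in FaDu, with 4 of 7 higher and 1 lower. Plasma cell markers summed to 1.90 to 5.11 CPM in shNSUN2 and 0 to 0.267 CPM in FaDu, with 3 of 6 higher.

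Smooth muscle markers summed to 39.2 to 52.3 CPM in shNSUN2 and 38.4 to 42.0 CPM in FaDu, with 2 of 6 higher. SMTN made up the largest part, at 25.9 to 39.0 CPM in shNSUN2 and 27.3 to 31.5 CPM in FaDu. The other markers of this list were each highest in shNSUN2 replicate 1. DES, called higher, stood at 2.75, 0.455 and 0.459 CPM in shNSUN2 and 0.114, 0 and 0.107 CPM in FaDu. MYH11, not called, stood at 8.29, 1.53 and 1.39 CPM in shNSUN2 and 0.948, 0.972 and 1.06 CPM in FaDu. Fibroblast markers summed to 6.56 to 11.9 CPM in shNSUN2 and 9.04 to 9.63 CPM in FaDu, with 1 of 8 higher. Leukocyte markers summed to 38.2 to 46.3 CPM in shNSUN2 and 31.4 to 52.0 CPM in FaDu, with none of 11 called, and PTPRC, CD3D and MS4A1 were at 0 in every library. The part of these markers in the values of NEAT1, H19 and the other members was not tested. In bulk libraries, fewer cells of a kind and less RNA per cell cannot be told apart.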

How the data were processed

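The authors deposited 1 table of estimated counts, with a row per gene and 6 columns of whole numbers, used unchanged. Bowtie 0.12.2, StringTie 1.3.0 and HISAT2 2.0 are named in the submitters' processing notes, as is the mouse build mm8, although the identifiers are human. The human build behind the table is not given in the sources used here. Low counts carry more error than their size shows, since the value 4 was 3.25 to 3.81 times as frequent as the mean of 3 and 5. Symbols and positions come from GENCODE 29 on GRCh38. Of the identifiers, 58472 matched the gene name table and 58552 matched GENCODE 29.

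The quasi-likelihood test of edgeR 4.0.16 (R 4.3.3) was run on all genes (glmQLFit and glmQLFTest, robust, TMM, filterByExpr by group with minimum count 10 and minimum total 15, group as the only term, two-sided, Benjamini-Hochberg over 19081 genes). The SE is the log2 fold change divided by the square root of F, and 95% intervals use the moderated degrees of freedom. CPM are on the TMM-adjusted totals. The correction for GC content and length subtracts, per library, natural splines with 5 degrees of freedom of each property as offsets. It moved the median log2 fold change of all genes from −0.01 to 0.11 and gave 3465 higher and 1945 lower genes, or 64.0% higher, against 1629 and 1903, or 46.1%, without it. DESeq2 1.42.0, other scalings, no filter, a replicate block and leaving out each library were tried as alternatives. The procedure was tested on simulated data.

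Members and lists were chosen with earlier results of these data known. Named were all members, NSUN2, up to 4 called genes of each list with the smallest adjusted p, the nearest neighbours and, for a called member, its 3 closest profiles. NONO, PUM2 and further neighbours beyond the 4 were named after their values were seen. SSSCA1 and LINC00473, each in a list, were not found under those symbols, so the list counts leave them out. List counts include a few genes whose own values are not reported here.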

Additional observations from a re-analysis of the deposited data

How the results depend on the processing

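NSUN2 stayed called under every setting run, and no setting called H19, MALAT1, MIR31HG, LUCAT1, TUG1, NORAD or KCNQ1OT1. Of the 10 members, DESeq2 called 2 (NEAT1 and MIR205HG), upper quartile scaling called MIR205HG in place of NEAT1 (adjusted p = 0.0575 for NEAT1) and the replicate block called 0. With the replicate block, 167 long noncoding genes and 31 genes of the 8 lists were called, against 290 and 48 without it. Samples of the same replicate number did not deviate together (r −0.04, 0.02 and 0.01), so the numbers do not pair the samples, and the block changed the calls of NEAT1 (adjusted p = 0.0947) and of those genes. With GC content and length offsets, 5410 genes were called against 3532. Leaving out 1 library gave 1354 to 4271 genes, 0 to 1 members, 90 to 282 long noncoding genes and 13 to 56 list genes called, each with 1 group left at 2 samples. The same with GC content and length offsets, an alternative chosen after seeing the data, gave 2970 to 5697, 1 to 2, 156 to 356 (162 and 189 without FaDu replicate 3 and 1) and 33 to 66. The direction turned positive without shNSUN2 replicate 3 for LUCAT1 (0.0066, range −0.66 to 0.0066) and TUG1 (0.019, range −0.36 to 0.019). With the offsets too, it did so for LUCAT1 without shNSUN2 replicate 1 or 3 or FaDu replicate 3 (0.061, 0.12 and 0.16, range −0.35 to 0.16), TUG1 without replicate 3 of shNSUN2 or FaDu (0.057 and 0.083, range −0.14 to 0.083) and NORAD without shNSUN2 replicate 3 (0.015, range −0.07 to 0.015). The cause of these differences was not tested. Depth limits what can be said of KCNQ1OT1, at 33 counts or fewer a library.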
